A study of Mus musculus with 2 samples.

Results

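The 51 genes described here are genes of the cell cycle, chosen by name from a fixed list and followed across every cell class of the dura, the tough outer layer of the brain's coverings. All 51 were found among the 19347 genes of the deposited table of annotated cells. They fall into 18 replication genes (the Mcm2 to Mcm7 helicase subunits, Pcna, Tyms, Rrm1, Rrm2 and others), 22 mitosis genes (Mki67, Top2a, Cdk1, cyclins, kinetochore and spindle genes), the 2 cyclin E genes and 9 genes that dividing cells raise but other cells also use (Cks1b, Cks2, Stmn1, H2afx, H2afz, Hmgb2, Hmgn2, Tubb5, Tuba1b), called broad genes below. The data are droplet single-cell counts of unique molecular identifiers (UMIs) from mice at postnatal day 14, with 1 library from heterozygous mice (Il33 H2B-mCherry/+, het) and 1 from Il33-deficient mice (Il33 mCherry/mCherry, KO). Both genotypes carry the mCherry reporter allele, so the het mice have a single intact copy and no wild-type library was analysed here. The comparison asks what IL-33 signalling contributes to the young dura. Tissue of 5 to 8 mice was pooled per genotype and sex. The loaded mix held sorted CD45+CD11b- cells, sorted gp38+CD31- cells and unsorted viable cells at 1:1:2, so the share of each class is set in part by the sort.

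The authors annotated 12544 cells, 5950 het and 6594 KO, with median depths of 12746.5 and 12203.5 UMIs. They were placed in 22 deposited clusters, of which cluster 9 carries the authors' names ILC2s, NK, Tcells and gdTcells, giving 25 classes. Levels are the UMIs of a gene or gene set in a class, given per 1000000 UMIs of the same cells (CPM). Each genotype is 1 library, so nothing is replicated and nothing is tested. Intervals are 95% intervals that cover counting error only, and genotype cannot be told apart from animals, sort or preparation. The targeted gene Il33 had 3827 UMIs (43.5 CPM) in het and 911 UMIs (9.68 CPM) in KO cells (KO/het ratio 0.222, 0.207 to 0.239). It was lower in KO in cluster 0 (unnamed, with Slc47a1, Smoc1 and Cxcl14 among its leading genes), the osteolineage-like cluster 4, the arachnoid barrier-like cluster 5 and the fibroblast-like cluster 7, for example with 2145 and 527 UMIs in cluster 0 and 497 and 94 in cluster 7, and had 0 UMIs in the ILC2s of either library. The libraries shared 14 barcodes among annotated cells, beside 10.7 that the share of common barcodes in the full matrices gives.

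A dividing cell first copies its DNA and then separates the copies. Replication genes are switched on by E2F factors when a cell leaves G1: the MCM proteins unwind DNA, Pcna clamps the polymerase, and Tyms, Rrm1, Rrm2 and Dut supply nucleotides. Mitosis genes follow in G2 and M, when Cdk1 pairs with cyclins A and B, kinesins such as Kif11 build the spindle, Bub1 and Bub1b guard the checkpoint and Ube2c with Cdc20 drives the exit. In the dura of young mice, developing B cells from the adjoining skull marrow are a known dividing population, and tissue-resident group 2 innate lymphoid cells (ILC2s) carry the IL-33 receptor and expand after birth.

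The promoters of the members differ between the 2 gene sets, and 4 are shown because their letters carry the motifs that distinguish them. Of the 51 members, 43 have an entry among RefSeq promoters (GRCm38.p6; 250 bases before to 50 after the start). The entries were searched on both strands for TTTGAA, the core of the cell cycle homology region bound by the DREAM and MuvB complexes, for CCAAT, the box bound by NF-Y, and for 4 octamers bound by E2F (TTTCCCGC, TTTGGCGC, TTTGCCGC and TTTCGCGC). Matches can overlap, and octamers on opposite strands do so once in Mcm6. TTTGAA was in 14 of 19 mitosis promoters (73.7%) and 3 of 16 replication promoters (18.8%), beside 20.2% of all 27025 genes with an entry. CCAAT was in 17 of 19 mitosis promoters (89.5%) and 11 of 16 replication promoters (68.8%), beside 41.1% of all. An E2F octamer was in 6 of 16 replication promoters (37.5%) and 1 of 19 mitosis promoters, beside 2.60% of all. A match describes letters in this window and is no evidence of binding. The stretches below are the 140 bases before the RefSeq start, 5′ to 3′ on the gene's strand, with motif matches in capitals (TTTGAA reads TTCAAA and CCAAT reads ATTGG on the other strand).
Top2a, chr11:99024190-99024329, minus strand: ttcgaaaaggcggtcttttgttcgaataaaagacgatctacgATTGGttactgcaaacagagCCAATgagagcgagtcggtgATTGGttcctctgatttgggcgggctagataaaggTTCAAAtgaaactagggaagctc
Kif11, chr19:37376242-37376381, plus strand: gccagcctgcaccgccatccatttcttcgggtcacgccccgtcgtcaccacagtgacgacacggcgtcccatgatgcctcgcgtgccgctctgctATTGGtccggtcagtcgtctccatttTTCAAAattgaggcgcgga
Mcm6, chr1:128359706-128359845, minus strand: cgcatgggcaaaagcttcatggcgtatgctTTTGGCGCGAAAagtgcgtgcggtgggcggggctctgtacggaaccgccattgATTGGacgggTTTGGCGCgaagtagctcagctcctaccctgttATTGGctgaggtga
Hmgb2, chr8:57511703-57511842, plus strand: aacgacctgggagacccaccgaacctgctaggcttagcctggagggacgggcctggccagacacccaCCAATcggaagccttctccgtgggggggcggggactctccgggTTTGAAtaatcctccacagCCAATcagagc
Top2a, the topoisomerase that untangles copied chromosomes, and the spindle motor Kif11 have TTTGAA 23 and 19 bases before the start with CCAAT upstream of it. Mcm6, a helicase subunit, has 3 E2F matches and no TTTGAA. Hmgb2, a broad chromatin gene, has TTTGAA and CCAAT and no E2F octamer.

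Across the 25 classes, the mitosis genes spanned a wider range than the replication genes. Summed mitosis genes ran from 57.9 to 9416 CPM in het classes, a 163-fold range, and from 50.2 to 9727 CPM in KO classes, a 194-fold range. Summed replication genes ran from 188 to 4239 CPM (22.6-fold) in het and from 190 to 4551 CPM (24.0-fold) in KO. Cluster 21, which is led by Pde6g and Gnb3 and stays unnamed, was lowest for the mitosis genes in both libraries, and the B cell-like cluster 10 was highest for both sets in both libraries. Over the 25 classes the log2 sums of the 2 sets had a Pearson correlation of 0.93 in het and 0.88 in KO (Spearman 0.905 and 0.796); the classes of a library share its preparation, and all of a class's genes share its depth.

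**Figure D1:**
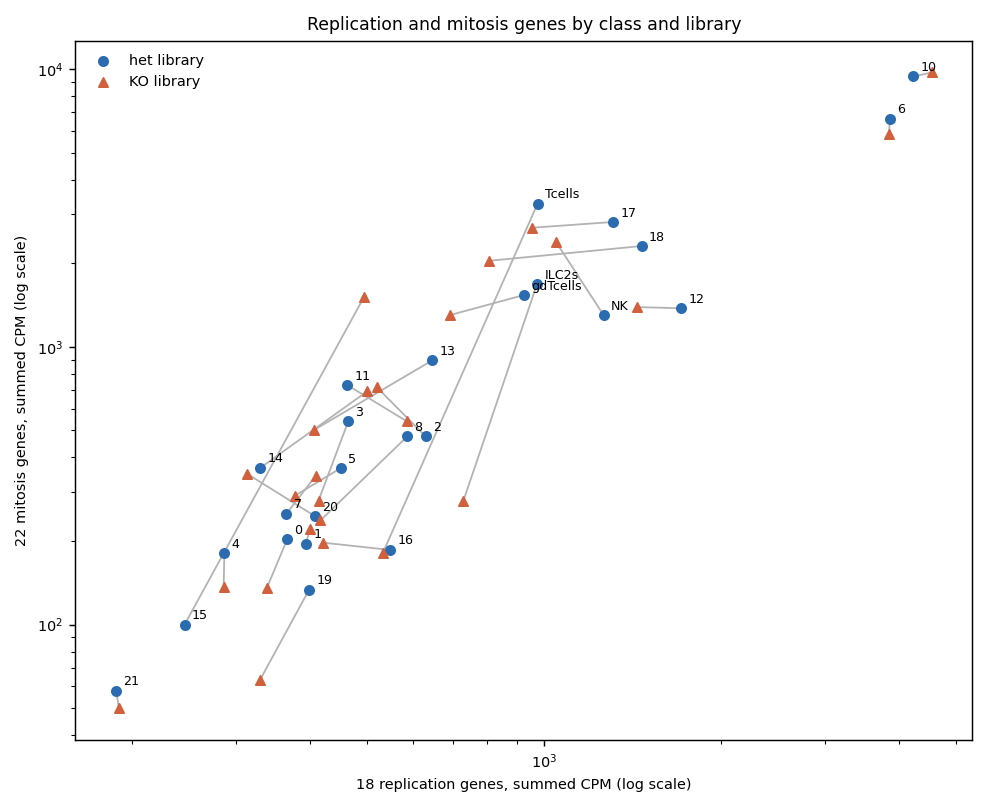
Summed CPM of the 22 mitosis genes (vertical, log scale) against the 18 replication genes (horizontal, log scale) in each of the 25 classes; circles are the het library, triangles the KO library, lines join the 2 values of a class, and labels give cluster numbers or the authors' names. Clusters 6 and 10 lie apart at the top right in both libraries, and steep lines mark classes such as ILC2s, Tcells and cluster 15 whose mitosis genes differed more between libraries than their replication genes.

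The same 2 B cell-like clusters held the highest level of nearly every member. Of the 22 mitosis genes, 20 in het and 21 in KO were highest in cluster 10 and the others in cluster 6. Of the 18 replication genes, 8 in het and 11 in KO were highest in cluster 10, and the other 10 and 7 were highest in cluster 6. Top2a reached 1605 CPM in het and 1744 CPM in KO cluster 10, against 912 and 806 CPM in cluster 6 and medians over classes of 50.7 and 50.1 CPM. Rrm2, the regulated subunit of ribonucleotide reductase, was among the replication genes highest in cluster 10, with 728 and 781 CPM against 360 and 354 CPM in cluster 6. Slbp was another, with 485 and 493 CPM against 311 and 328 CPM. Mcm6 was instead highest in cluster 6, at 239 CPM in het and 241 CPM in KO, ahead of 202 and 199 CPM in cluster 10. The exception among all members was Stmn1, which encodes the microtubule regulator stathmin and is also used by neurons. It was highest in cluster 17, neuron-like and led by Igfbpl1 and Neurod1, at 4446 CPM in het and 4286 CPM in KO, above 3082 and 3380 CPM in cluster 10. Stmn1 also reached 2172 and 3571 CPM in the olfactory neuron-like cluster 19 and 2431 and 2297 CPM in cluster 21, where the mitosis genes were near their lowest (134 and 63.4 CPM in cluster 19).

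Cycling cells were counted in 2 ways. First, every cell was thinned to 3000 UMIs, cells below that were left out (219 het and 266 KO cells), and a cell with UMIs of at least 3 of the 22 mitosis genes was called mitosis-positive. By this count 811 of 5731 het cells (14.2%) and 777 of 6328 KO cells (12.3%) were positive; without thinning the count was 1252 of 5950 and 1207 of 6594. In cluster 10, 96.0% of het and 99.2% of KO cells were positive, and in cluster 6, 88.3% and 84.5%. The other B cell-like clusters 1, 2 and 16 had 1.63% to 4.26%. Next came cluster 17 with 29.5% of het and 20.6% of KO cells, cluster 12 with 27.6% and 20.5%, and the monocyte-like cluster 18 with 26.7% and 17.4%. Neighbours in this order below cluster 6 had overlapping intervals. In cluster 21, taken as background because its mitosis genes were lowest, 0 of 29 het and 0 of 38 KO cells were positive, which allows shares of up to 10.3% and 7.89% when 3 cells are taken as the limit of a count of 0. Its cells are deep (median 30431 and 28933.5 UMIs), and without thinning 6.90% and 13.2% of them passed. Because the cluster was chosen for its low mitosis genes, its 0 after thinning says nothing of the background in other classes.

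**Figure D2:**
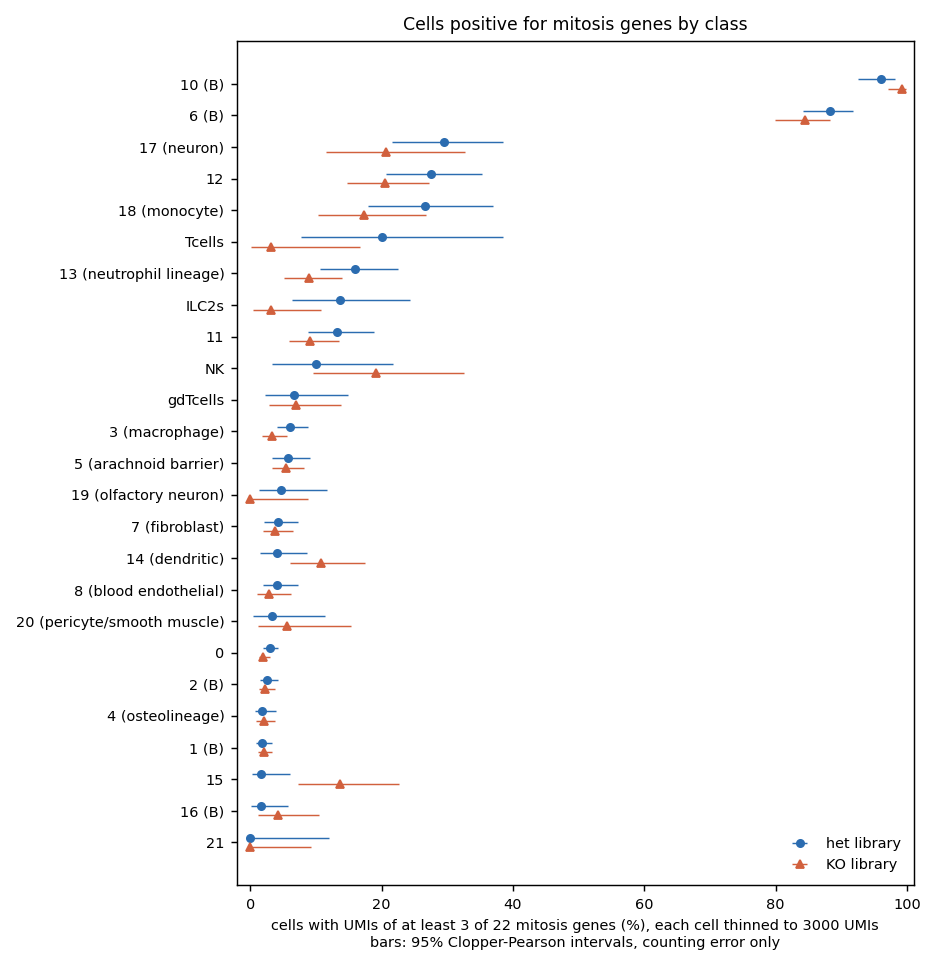
Percent of cells with UMIs of at least 3 of the 22 mitosis genes after thinning each cell to 3000 UMIs, by class; circles are het, triangles KO, bars are 95% Clopper-Pearson intervals for counting error. Clusters 10 and 6 lie above 80%, and all other classes lie below 30%.

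Second, a cell was called mitosis-high where the mitosis genes made up at least 0.1% of its UMIs. This took 817 of 5950 het cells (13.7%) and 789 of 6594 KO cells, which held 94.2% and 93.8% of all mitosis UMIs. It is a range and not a cell type: 218 het and 200 KO cells lay between 0.05% and 0.1%, and 143 and 115 between 0.1% and 0.2%. In a shallow cell 1 UMI can reach it, and the lowest mitosis-high cell of each library had 1 mitosis UMI; the median had 111 and 105 UMIs of 19 genes. The B-lineage clusters 1, 2, 6, 10 and 16 held 524 of the het (64.1%) and 554 of the KO (70.2%) mitosis-high cells, while making up 32.4% and 32.9% of annotated cells. Mitosis-high cells were deeper than others, with median depths of 17140 and 16792 UMIs against 12044 and 11623.

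Every mitosis gene was concentrated in mitosis-high cells, as the way these cells were chosen makes likely even though each gene was left out of the choice when its own fold was taken, but the degree differed between genes. Inside over outside, the median fold of the 22 genes was 60.8 in het and 55.9 in KO B-lineage cells, and 56.9 and 69.9 in all other cells. Hmmr, which encodes a spindle-associated hyaluronan receptor, was among the most concentrated, at 305-fold in het and 116-fold in KO B-lineage cells and 198-fold and 238-fold in other cells. Cenpa, the histone variant that marks centromeres, was the least concentrated mitosis gene in all 4 pools, at 7.15 and 7.17-fold in B-lineage and 13.4 and 13.7-fold in other cells. Outside mitosis-high cells Cenpa still had 67.4 and 59.6 CPM in B-lineage and 21.7 and 22.2 CPM in other cells.

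The replication, cyclin E and broad genes did not enter the definition of mitosis-high cells and give a measure beside it. The replication genes had median folds of 4.01 in het and 6.35 in KO B-lineage cells and 6.04 and 6.55 in other cells. The higher folds of the mitosis genes are not a like measure, because mitosis genes were used to choose the cells. Rrm2 was the most concentrated replication gene in all 4 pools, at 20.2 and 33.7-fold in B-lineage cells and 40.8 and 41.8-fold in other cells. Tyms, which makes thymidylate, followed at 11.6 and 17.6-fold in B-lineage cells and 12.6 and 13.1-fold elsewhere. Slbp, the histone mRNA binding protein, and Ung, the uracil glycosylase, were among the least concentrated, between 2.02 and 3.56-fold. The cyclin E genes Ccne1 and Ccne2, which open S phase with Cdk2, had median folds of 11.5 in het and 24.5 in KO B-lineage cells but 7.58 and 6.80 in other cells. The broad genes had medians of 9.92 in het B-lineage cells and of 5.66 and 5.87 in other cells, with H2afx highest among them in B-lineage cells (22.3 and 20.7-fold). The tubulin gene Tubb5 was lowest in other cells at 3.10 and 3.28-fold.

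**Figure D3:**
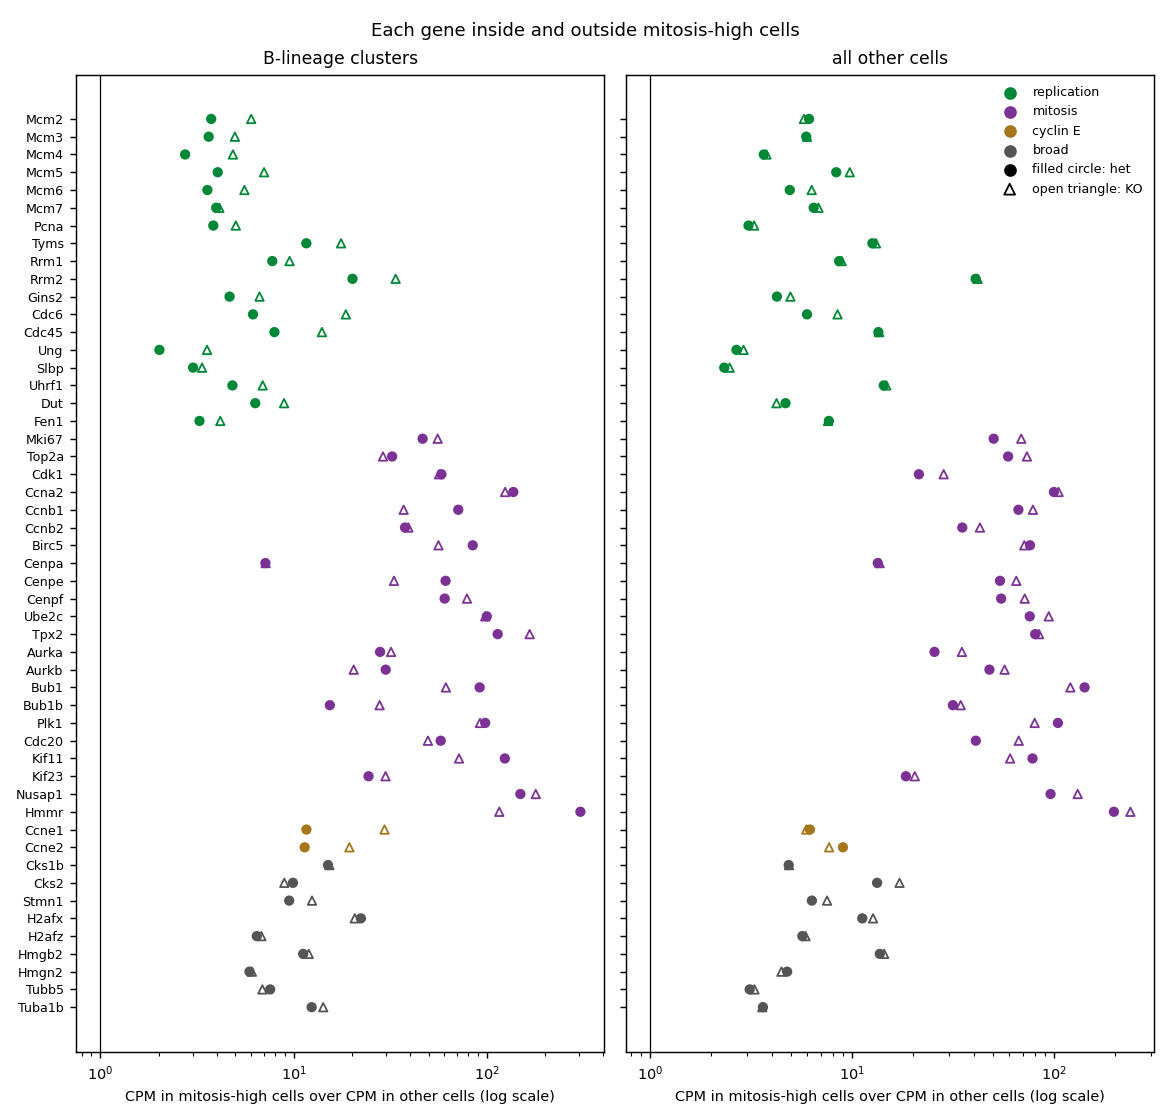
CPM of each of the 51 members inside mitosis-high cells over CPM outside them (horizontal, log scale), in the B-lineage clusters (left) and all other cells (right); filled circles are het and open triangles KO, coloured by gene set. The mitosis genes, which define these cells, mostly lie above 20-fold, Cenpa lies to their left, and Rrm2 stands to the right of the other replication genes.

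In the B lineage, the mitosis-high cells differed from the remaining cells in the CPM of stage genes. Ms4a1, which encodes CD20 of later B cells, had 73.4 CPM in het and 92.1 CPM in KO mitosis-high cells, against 1557 and 1453 CPM in cells high for neither set. Cd74, the MHC class II chaperone, had 439 and 478 CPM against 5721 and 5458 CPM. Rag1, the recombinase that rearranges antigen receptors, had 38.1 and 31.7 CPM against 284 and 244 CPM. Igll1, a surrogate light chain gene, had 347 and 280 CPM against 306 and 212 CPM. Its partner Vpreb1 went the other way, with 594 and 461 CPM against 783 and 549 CPM, as did Dntt, with 132 and 98.2 CPM against 141 and 118 CPM. The B cell marker Cd79a was also lower, at 1360 and 1283 CPM against 3955 and 3786 CPM. The mitosis-high cells were deeper (median 13838.5 and 14194.5 against 4294.5 and 4400.5 UMIs), so a gene with equal UMIs per cell has a lower CPM in them. Stage and depth were not told apart here. Between libraries the B-lineage members hardly differed. Summed mitosis genes were 4632 CPM in het and 4256 CPM in KO (ratio 0.919), and summed replication genes 2612 and 2557 CPM (ratio 0.979). None of the 22 mitosis and none of the 18 replication genes was 1.5-fold lower in KO, where 3.87% of all 12972 measured genes were. The 22 mitosis ratios all lay below 1, from 0.853 for Bub1b to 0.983 for Plk1, with a median log2 ratio of -0.11 beside -0.02 over all genes. Outside the mitosis-high cells, the replication genes stood at 811 CPM in het and 612 CPM in KO (0.755, 0.727 to 0.785).

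Between libraries, the summed mitosis genes were 1.5-fold apart in more classes than the summed replication genes. The summed mitosis genes were lower in KO in 15 of the 25 classes and at least 1.5-fold lower in 6 (ILC2s, Tcells, and clusters 3, 8, 13 and 19). They were at least 1.5-fold higher in 4 (NK and clusters 2, 14 and 15). Of these 10 classes, NK, cluster 2 (just past the fold, at 476 and 715 CPM) and cluster 19 turned in male-labelled cells, to log2 ratios of -1.40, -0.23 and 0.37. The last rests on 12 het and 4 KO cells, and its interval holds 0. The summed replication genes were lower in KO in 18 classes, but at least 1.5-fold lower in only 3 of the 25 (Tcells and clusters 13 and 18) and higher in 2 (clusters 14 and 15). The broad genes passed that fold in ILC2s and Tcells (lower) and in cluster 15 (higher). Across all annotated cells the differences were small, with 1337 and 1196 CPM for the mitosis genes and 932 and 879 CPM for the replication genes.

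**Figure D4:**
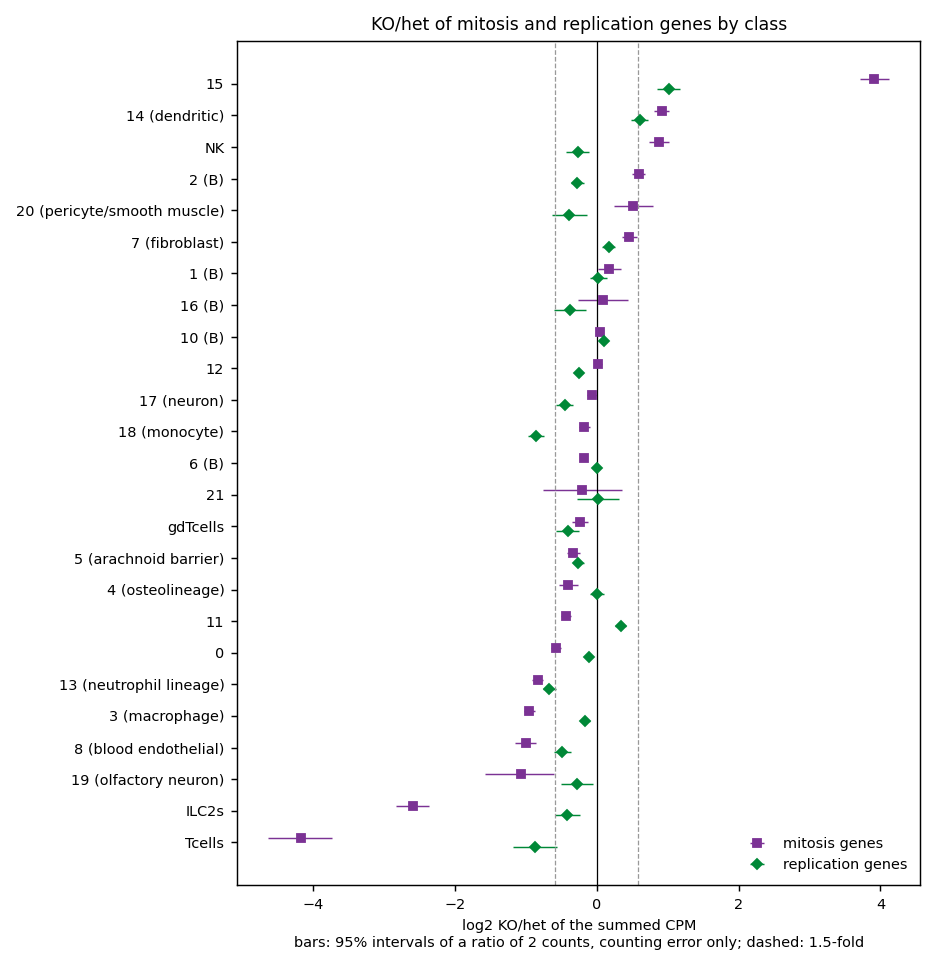
Log2 KO/het ratio of the summed CPM of the mitosis genes (squares) and the replication genes (diamonds) in each class, with 95% intervals for counting error; dashed lines mark 1.5-fold. Mitosis ratios run from -4.17 in Tcells to 3.91 in cluster 15, while replication ratios stay between -0.87 and 1.01.

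In ILC2s the gap between the 2 gene sets was wide. The 66 het cells had 1267 mitosis UMIs (1685 CPM) and the 65 KO cells 173 (279 CPM), a ratio of 0.166 (0.141 to 0.194). Their replication genes had 732 UMIs (973 CPM) and 452 (730 CPM), a ratio of 0.750 (0.665 to 0.844). Cyclin E was near absent in both, with 5 and 6 UMIs. Of the 18 mitosis genes with at least 20 UMIs, 18 were at least 1.5-fold lower in KO, where 14.1% of all 5759 measured genes were. Their median log2 ratio was -2.73, beside -0.04 over all genes. Of 15 measured replication genes 4 passed the same fold, with a median of -0.30, and of 9 broad genes all 9 did, with a median of -1.44.

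The 4 replication genes of ILC2s that passed the fold were Tyms, Rrm1, Rrm2 and Mcm2. Tyms had 59 UMIs in het and 22 in KO (ratio 0.453, 0.264 to 0.750), Rrm1 44 and 16 (0.442, 0.233 to 0.798) and Rrm2 60 and 19 (0.385, 0.217 to 0.653). Dut, which keeps uracil out of DNA, had 179 and 102 UMIs (0.692, 0.537 to 0.887) and did not pass the fold. The helicase gene Mcm2 passed with a ratio of 0.645, but its interval of 0.336 to 1.20 holds 1. Mcm3, Mcm6, Mcm7 and Pcna had ratios of 1.02, 1.25, 1.03 and 1.00, each with an interval that holds 1, which leaves differences of up to 1.6-fold or more undetected at this depth.

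Among the mitosis genes of ILC2s, 3 had no UMI in KO ILC2s. Cenpe, the kinetochore motor, had 47 UMIs in 12 het cells and 0 in KO, at least 12.9-fold lower when 3 counts are taken as the limit for the KO group and the het count as exact; the counting interval of the ratio, which takes in the het count as well, reaches 0.0991. On the same terms Ccnb1 had 13 and 0 UMIs (at least 3.57-fold lower, interval up to 0.398) and Aurka, the spindle pole kinase, 12 and 0 (at least 3.29-fold lower, interval up to 0.437). Ccnb2 had 48 UMIs in 14 het cells and 1 in KO (ratio 0.0253, 0.000628 to 0.148), and Bub1b 32 and 1 (0.0379, 0.000932 to 0.227). Ccna2, cyclin A, had 39 and 3 UMIs (0.0934, 0.0185 to 0.294), while the centromere gene Cenpa kept 15 KO UMIs in 13 cells against 79 in het (0.231, 0.123 to 0.404). Tpx2 and Kif23 were the least lowered of the measured mitosis genes, at 0.469 (0.251 to 0.838) and 0.486 (0.241 to 0.926). Of the broad genes, Tuba1b had 267 and 62 UMIs (0.282), Hmgn2 174 and 39 (0.272) and Hmgb2 1100 and 441 (0.487).

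**Figure D5:**
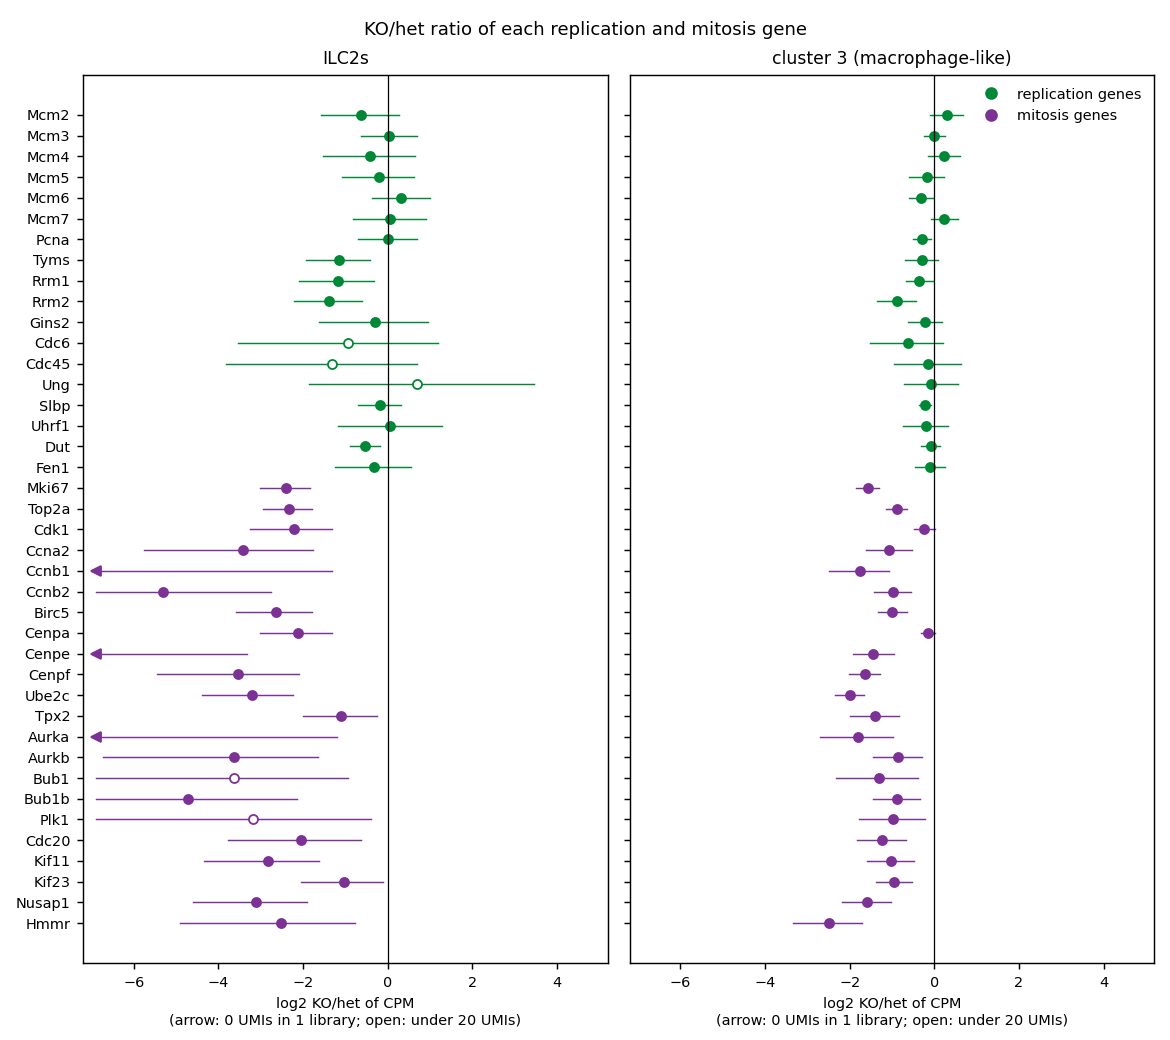
Log2 KO/het ratio of the CPM of each replication gene (upper 18) and mitosis gene (lower 22) in ILC2s (left) and the macrophage-like cluster 3 (right), with 95% intervals for counting error; arrows mark genes with 0 UMIs in KO and open symbols genes under 20 UMIs in both libraries together. In ILC2s the measured mitosis genes lie left of the line with intervals that leave out 1, and Mcm3, Mcm6, Mcm7 and Pcna lie on or right of it.

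This difference came from few cells. Mitosis-high cells numbered 10 of 66 in het ILC2s and 2 of 65 in KO (ratio of shares 0.203, 0.0216 to 0.953), and after thinning 9 of 66 (13.6%) and 2 of 64 (3.13%) were mitosis-positive; without thinning these were 16 (24.2%) and 8 (12.3%). The 10 het cells had 17 to 223 mitosis UMIs of 6 to 22 genes, and the 2 KO cells had 44 and 50 UMIs of 13 and 14 genes. Of the 10 het cells 7 were female-labelled, of 29 such cells, and 3 were among 37 male-labelled cells; the 2 KO cells were male-labelled, with 0 of 30 in female-labelled cells. The ILC2 marker list summed to 5814 CPM in the 10 het cells and 5563 CPM in the others, and to 9441 CPM in the 2 KO cells and 3668 CPM in the other KO cells, and the 7 NK markers were at 0 in every het cell. The B cell list summed to 315 CPM in the 10 cells and 155 CPM in the other het ILC2s, and 3 of the 10 carried at least 2 UMIs of B cell markers; the log2 ratio was -2.53 without all cells that carry such UMIs, against -2.59 with them. By sex label it was -4.29 in female-labelled and -1.21 in male-labelled cells, where 6 mitosis genes passed the fold in place of 18. Outside mitosis-high cells, where the fibroblast list also differed (443 CPM in het and 872 CPM in KO), replication genes stood at 513 CPM in het and 482 CPM in KO (0.939, 0.793 to 1.11), and broad genes at 1659 and 1504 CPM (0.907, 0.826 to 0.996).

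Other cell cycle lists, outside the 51 members, were counted in ILC2s beside the same 14.1% of all measured genes. Of 11 measured further mitosis genes 10 were 1.5-fold lower, among them Cdca8 (68 and 11 UMIs), Spc24 (54 and 18), Prc1 (44 and 6) and Cdca3 (43 and 4). Of 11 measured licensing and checkpoint genes 6 were, with Atad2 at 0.550, Gmnn, the inhibitor of relicensing, at 0.434, Clspn at 0.342 and Tk1 at 0.304. Of 5 measured cycle drivers 1 was lower, a share near that of all genes, and Ccnd2, a cyclin of G1 entry, had 160 and 185 UMIs (ratio 1.40, 1.13 to 1.75). Of 11 measured cycle inhibitors 4 were lower. Cdkn1a, the inhibitor p21, stood at 320 CPM in het and 153 CPM in KO (0.479, 0.373 to 0.609), and Cdkn2c, the inhibitor p18, had 26 and 7 UMIs (0.327, 0.120 to 0.773).

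The other lymphocytes of cluster 9 differed from each other in direction. In Tcells, 30 het and 32 KO cells had 910 and 45 mitosis UMIs (3274 and 182 CPM; 0.0555, 0.0402 to 0.0749) and 271 and 132 replication UMIs (975 and 533 CPM; 0.547). Mitosis-high Tcells numbered 6 of 30 in het, with a median of 108 mitosis UMIs, and 3 of 32 in KO, with 2, 7 and 20, so the cell counts differed less than the UMIs, and 1 het cell held 32.7% of the het UMIs. The log2 ratio of -4.17 became -4.53 when that cell and the top KO cell were left out. In gdTcells the sums over all cells were 1536 and 1302 CPM for mitosis genes and 923 and 693 CPM for replication genes, and 5 het and 6 KO cells were mitosis-high. These sums hide opposite values by sex label, with a log2 mitosis ratio of -1.09 in female-labelled and 2.78 in male-labelled cells; the 5 het cells were all female-labelled, and the KO cells were 3 and 3.

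NK cells had higher mitosis genes and lower replication genes in KO. Mitosis genes stood at 1299 CPM (621 UMIs) in 52 het cells and 2380 CPM (1466 UMIs) in 54 KO cells (1.83, 1.67 to 2.02), and replication genes at 1263 and 1049 CPM (0.830, 0.742 to 0.929). Of 19 measured mitosis genes 13 were at least 1.5-fold higher, where 14.1% of all 5828 measured genes were. Birc5, which encodes survivin, had 41 and 118 UMIs (2.23, 1.55 to 3.27), Kif11 17 and 48 (2.19, 1.24 to 4.07) and Nusap1 32 and 83 (2.01, 1.32 to 3.13). Mcm3 went the other way with 65 and 46 UMIs (0.549, 0.368 to 0.814). Cdkn1c, the inhibitor p57 of the inhibitor list, had 7 and 104 UMIs (11.5, 5.40 to 29.4). These lay in 6 het and 7 KO cells, with 44 of the KO UMIs in 1 cell. The mitosis-high cells were 5 of 52 in het (1 of 35 female-labelled and 4 of 17 male-labelled) and 11 of 54 in KO (6 of 22 and 5 of 32). The log2 ratio of 0.87 was 4.00 in female-labelled cells and -1.40 in male-labelled cells, and 0.20 without cells that carry B cell marker UMIs, of which 3 were mitosis-high in KO and 0 in het. The direction of the mitosis genes in NK cells therefore rested on which cells were taken. Outside mitosis-high cells the replication genes stood at 984 CPM in het and 626 CPM in KO (0.637, 0.543 to 0.746). Broad genes there stood at 3050 and 1996 CPM (0.655, 0.599 to 0.715), and the NK marker list at 4073 and 2051 CPM.

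Cluster 3, macrophage-like, had the split of the ILC2s at a smaller size. Mitosis genes stood at 540 CPM in 446 het cells and 280 CPM in 440 KO cells (0.518, 0.491 to 0.546), and replication genes at 465 and 414 CPM (0.890, 0.848 to 0.934). Of the 22 mitosis genes 20 were at least 1.5-fold lower, where 6.91% of all 12934 measured genes were; the exceptions were Cdk1 at 0.850 and Cenpa, with 691 and 585 UMIs. Hmmr had 95 and 16 UMIs (0.179, 0.0984 to 0.306) and Ube2c, the ubiquitin-conjugating enzyme of mitotic exit, 381 and 90 (0.251, 0.197 to 0.317). Of the 18 replication genes only Rrm2 (120 and 61 UMIs; 0.540) and Cdc6 (33 and 20; 0.644, 0.350 to 1.16) were that much lower. Of 24 measured further mitosis genes 18 were lower.

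In cluster 3, genes of B-lineage cells also differed between libraries. Vpreb1, a surrogate light chain gene of pre-B cells, had 163 UMIs in het and 25 in KO cluster 3, Igll1 87 and 14, and Dntt 41 and 4. A single cell held 59 of the 163 Vpreb1 UMIs. Mitosis-high cells numbered 27 in het, of which 15 carried at least 2 UMIs of B cell markers, and 12 in KO, of which 3 did. The B cell list summed to 1059 CPM in the 27 het cells against 339 CPM in the other het cells, and to 475 against 373 CPM in KO. The macrophage list summed to 11822 CPM in the het mitosis-high cells and 17245 CPM in the others. Without cells carrying B cell marker UMIs the log2 ratio of the mitosis genes was -0.68, and without the 5% of cells with the highest doublet score it was -0.42, against -0.95 for all cells. The replication ratio was instead further from 1 without the cells carrying B cell marker UMIs. The cause of the difference was not tested. Outside mitosis-high cells the replication genes were level, at 373 and 372 CPM (0.997, 0.944 to 1.05). After thinning 26 of 426 het (6.10%) and 14 of 419 KO cells (3.34%) were mitosis-positive, while without thinning the shares were 27.6% and 28.4%.

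Cluster 15 showed the highest KO/het ratio. It holds markers of Schwann cells and oligodendrocytes (7 of 7 and 5 of 5) and is given by number. Mitosis genes stood at 99.9 CPM (211 UMIs) in 122 het cells and 1507 CPM (2207 UMIs) in 103 KO cells, a ratio of 15.1 (13.1 to 17.5), and replication genes at 245 and 494 CPM (2.02, 1.80 to 2.26). Of 22 mitosis genes 22 were at least 1.5-fold higher, of 17 measured replication genes 14 and of 9 broad genes 8, where 11.7% of all 10653 measured genes were. Ube2c had 5 UMIs in het and 238 in KO (68.6, 29.0 to 213), Cdk1 8 and 146 (26.3) and Rrm2 8 and 67 (12.1, 5.79 to 29.1). Ccna2 had 1 UMI in het and 57 in KO, and the counting interval of this ratio of 82.2 runs from 14.2 to 3302.

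The UMIs of cluster 15 sat in 2 mitosis-high cells of 122 in het and 14 of 103 in KO, and after thinning 2 of 118 (1.69%) and 12 of 88 (13.6%) were mitosis-positive, with 7 (5.74%) and 20 (19.4%) before thinning. The 14 KO cells had little of the cluster's markers: the Schwann list summed to 3042 CPM against 23354 CPM in the other KO cells, and the oligodendrocyte list to 60.7 against 3297 CPM. Their B cell list summed to 1227 against 287 CPM, and 4 of the 14 carried B cell marker UMIs. Vpreb1 had 2 UMIs in het and 57 in KO, 30 of them in 1 cell, and Dntt 0 and 26. Without cells carrying B cell marker UMIs the log2 ratio was 3.53, against 3.91 for all cells, so it was nearly as large without them. The sex labels of the cluster also differed, with 77 of 122 het and 31 of 103 KO cells female-labelled, and the log2 ratio was 5.47 in female-labelled and 2.02 in male-labelled cells. Within the 14 cells there were 6.06 mitosis UMIs per replication UMI, against 1.60 in the mitosis-high cells of KO cluster 6 and 2.14 in those of KO cluster 10. In the B cell-like KO clusters 1 and 2 the mitosis-high cells had 3.68 and 7.66. Those of the neuron-like KO cluster 17 had 4.05, and those of the fibroblast-like cluster 7 had 6.15 in het and 1.93 in KO. The origin of the 14 cells was not tested. Outside the mitosis-high cells the replication genes stood at 245 and 305 CPM (1.25, 1.09 to 1.43).

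Among the myeloid classes, the direction varied. In the dendritic cell-like cluster 14, mitosis genes stood at 367 and 692 CPM (1.88, 1.75 to 2.03) and replication genes at 330 and 501 CPM (1.52, 1.40 to 1.65). Of 21 measured mitosis genes 17 and of 17 replication genes 9 were at least 1.5-fold higher, where 6.57% of all genes were, and 7 of 148 and 12 of 129 cells were mitosis-high. In the neutrophil lineage-like cluster 13 the values were 894 and 502 CPM (0.561, 0.530 to 0.593) and 646 and 407 CPM (0.629, 0.590 to 0.671). Of 22 mitosis genes 13 and of 18 replication genes 7 were at least 1.5-fold lower there, where 6.36% of all genes were, and mitosis-high cells numbered 24 of 167 and 14 of 180. B cell marker UMIs were in 10 of the 24 and 7 of the 14, and in 37 of the 167 and 52 of the 180. Median depth was 39651.5 and 35077.5 UMIs in the mitosis-high cells and 15206 and 18909.5 UMIs in the others. The log2 mitosis ratio of cluster 13 was -0.94 in female-labelled and -0.45 in male-labelled cells.

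Cluster 18, monocyte-like, had lower replication genes in KO, while its mitosis genes differed by sex label. Replication genes stood at 1464 CPM (1850 UMIs) in 91 het cells and 807 CPM (1024 UMIs) in 92 KO cells (0.551, 0.510 to 0.595), and mitosis genes at 2307 and 2041 CPM (0.885, 0.839 to 0.933). Outside mitosis-high cells the replication genes stood at 217 CPM in het and 211 CPM in KO, against 2611 and 1660 CPM within them. The log2 mitosis ratio was 0.24 in female-labelled and -0.99 in male-labelled cells, against -0.92 and -0.76 for the replication genes. Of 17 measured replication genes 16 were at least 1.5-fold lower, where 12.7% of all 8015 genes were, but of 22 mitosis genes only 3. Mcm3 had 159 and 52 UMIs (0.325, 0.233 to 0.448) and Uhrf1, which copies DNA methylation, 57 and 18 (0.314, 0.174 to 0.542), while Pcna had 117 and 96 (0.816, 0.617 to 1.08). Ccne1 and Ccne2 had 30 and 12 and 36 and 11 UMIs, and 9 of 15 measured cycle drivers passed the fold, with Cdk4 at 0.652 and Cdk2 at 0.387. The mitosis-high cells, 25 in het and 17 in KO, carried the granulocyte progenitor genes Mpo, Elane, Prtn3 and Ctsg at summed levels of 2534 and 2526 CPM, against 14.9 and 24.1 CPM in the other cells of the cluster. These levels were uneven: the median mitosis-high cell had 540 and 242 CPM, the lowest 0 and the highest 11432 and 11100 CPM. Beside 5038 and 5923 CPM in the other cells, the monocyte list stood at 5440 and 5537 CPM in the mitosis-high cells. Their B cell list summed to 694 CPM in het and 42.2 CPM in KO, with B cell marker UMIs in 10 of 25 and 5 of 17 cells, and their macrophage list to 275 and 1231 CPM. Without cells carrying B cell marker UMIs the log2 ratio of the replication genes was -0.59, against -0.86 for all cells. In cluster 12, which mixes mast cell or basophil markers with granulocyte progenitor markers, cells with more progenitor than mast UMIs were mitosis-high in 18 of 38 het and 9 of 23 KO cells. Those with more mast than progenitor UMIs were so in 14 of 83 and 16 of 85, and those with equal UMIs in 8 of 45 and 9 of 106. Of the mast-side cells 20 het and 40 KO lay within 5 UMIs of the split, and in KO the summed mitosis genes were 1705 CPM on the progenitor side and 1827 CPM on the mast side. The progenitor side is deeper (median 30942 and 39605 against 9526 and 7766 UMIs), and its part was not tested, though after thinning 54.1% and 47.8% against 19.5% and 21.1% on the mast side were positive.

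In the remaining named classes the members differed less or rested on few cells. The neuron-like cluster 17 had 2816 and 2686 mitosis CPM and 1309 and 955 replication CPM (0.730, 0.673 to 0.791), with 38 of 123 and 13 of 63 cells mitosis-high. The blood endothelial-like cluster 8 had 476 and 237 mitosis CPM (0.498) and 586 and 417 replication CPM (0.712). Of 20 measured mitosis genes 15 and of 17 replication genes 10 were at least 1.5-fold lower, where 6.78% of all genes were. This rested on 12 of 261 het and 5 of 226 KO mitosis-high cells, of which 3 and 1 carried B cell marker UMIs. Of the same cells 7 and 4 were among the 5% with the highest doublet score. That 5% held 14 of the 261 and 14 of the 226 cells of the cluster. Vpreb1 had 111 and 9 UMIs and Igll1 59 and 3 in this cluster, and 1 het cell held 79 of the Vpreb1 UMIs. Outside the mitosis-high cells the replication genes of cluster 8 were higher in KO, at 300 and 369 CPM (1.23, 1.11 to 1.37). In cluster 0 and the arachnoid barrier-like cluster 5, 2.96% and 5.76% of het and 1.99% and 5.43% of KO cells were mitosis-positive after thinning. In cluster 0, 17 of 28 het and 15 of 23 KO mitosis-high cells were among the 5% with the highest doublet score. That 5% held 29 of 984 and 29 of 1155 cells of the cluster. In cluster 5 it held 6 of 16 and 6 of 20 mitosis-high cells, and 13 of 295 and 11 of 372 of all cells.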

How the data were processed

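Droplet libraries of dural meninges, 1 per genotype, were used. The submitters' processing notes name Cell Ranger 3.0.2 and the build mm10; the sources used here do not say whether counting used strand, so reads of overlapping antisense genes (Ube2c with Tnnc2, Ccna2 with Exosc9 and others) cannot be told apart. The deposited table of annotated cells holds whole UMI counts per gene and cell, and 0 member values differed from the deposited matrices. The deposited metadata gives the authors' clusters, cell type names, sex labels (in 12544 of 12544 cells a cell is labelled female exactly where it has Xist UMIs), the percent of mitochondrial UMIs and S and G2M scores per cell; no value here rests on the authors' percent and score columns, and their phase calls were only counted beside the mitosis-high cells.

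UMIs were summed per class and library and divided by the class's total. Ratios carry exact conditional binomial intervals, CPM exact Poisson intervals and shares exact Clopper-Pearson intervals, all at 95% and for counting error only. A gene was measured in a class with at least 20 UMIs over both libraries and called at 1.5-fold. Thinned shares come from the first of 20 draws. Doublets were not removed: Scrublet called 3 het and 1 KO cells (0.0504% and 0.0152%), too few for its calls to be used, so the 5% of cells with the highest score per library were left out as an alternative. Cells with at least 2 UMIs of Cd79a, Cd79b, Vpreb1, Vpreb3 or Igll1 were counted as carrying B cell markers. Clusters were named from fixed marker lists. Steps ran in Python 3.11.15 with numpy 2.4.6, scipy 1.17.1, pandas 2.3.3, scanpy 1.11.5 and matplotlib 3.10.9. The ratio and its interval were tested on simulated Poisson counts, which lack the clumping of UMIs in few cells. Of the thinning only the total of a simulated draw was checked, and no other step was tested on simulated data. The 51 members and all lists were chosen with earlier results of these data known. Any member may be named in any class; of the other cell cycle and B cell stage lists, genes were named with at least 20 UMIs in a class, a ratio at least 1.5-fold from 1 and an interval that leaves out 1, at most 4 per list and class. Ccnd2 in ILC2s, Vpreb1, Igll1 and Dntt in clusters 3, 8 and 15, the B cell stage genes and Cd79a were added after their values were seen.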

Additional observations from a re-analysis of the deposited data

Results flagged for a closer look

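The log2 KO/het ratio went one way in female-labelled and the other way in male-labelled cells, with both counting intervals leaving out 0, in 12 sums; the difference itself was not tested, each side is 1 pool of mice, and the sex label rests on the presence of an Xist UMI. For the mitosis genes the female-labelled and male-labelled values were 4.00 and -1.40 in NK cells, -1.09 and 2.78 in gdTcells, 1.02 and -0.23 in cluster 2, -0.39 and 0.37 in cluster 4, and -1.13 and 1.54 in cluster 7. They were 0.27 and -0.29 in cluster 12, 0.24 and -0.99 in cluster 18, and 2.78 and -0.88 in the pericyte or smooth muscle-like cluster 20. For the replication genes they were -0.15 and 0.12 in the pooled B-lineage clusters, -0.18 and 0.04 in all annotated cells, -0.073 and 0.071 in cluster 6, and -0.57 and 0.52 in cluster 7. Several of the mitosis values rest on few cells, and the intervals do not cover the clumping of UMIs in them. Cluster 20 had 0 het and 1 KO female-labelled and 3 het and 2 KO male-labelled mitosis-high cells, with 51.9% of the KO mitosis UMIs in 1 cell. Cluster 4 had 5 and 5 female-labelled and 2 and 9 male-labelled ones, and cluster 7 had 7 and 2 and 4 and 9.

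Mitosis genes were also found in barcodes that the authors did not annotate. At the limit of 0.1% of UMIs, 514 of 4986 such het barcodes (10.3%) and 561 of 5452 KO barcodes (10.3%) were mitosis-high. Those with hemoglobin genes at 0.1% of UMIs or more held most of them, with 382 of 2544 het (15.0%) and 410 of 2494 KO barcodes (16.4%), and summed mitosis genes of 2800 and 2989 CPM. Among those with lower hemoglobin and mitochondrial genes over 15% of UMIs, 110 of 2325 (4.73%) and 125 of 2827 (4.42%) were mitosis-high. These barcodes are shallow (median 2343 and 2562.5 UMIs), so few mitosis UMIs suffice.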

How the results depend on the processing

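No paired analysis was possible because each genotype has 1 library; leaving out a replicate was likewise not possible. Counts from the full matrices and scaling without mitochondrial, hemoglobin, immunoglobulin and ribosomal protein genes left every sum, share and count they were run on within its interval or within 1.5 times. Single-gene alternatives were run for ILC2s and cluster 3 only. In ILC2s the log2 ratio of the mitosis genes, -2.59, was -2.27 as a mean of per-cell values, -4.29 in female-labelled and -1.21 in male-labelled cells, -2.84 without the top cell of each library and -3.04 without the cells of highest doublet score. That of the replication genes, -0.42, was -0.75, -0.18, -0.66 and -0.71 in female-labelled cells, in male-labelled cells, without the top cell and without the cells of highest doublet score. In cluster 3 the mitosis ratio, -0.95, was -0.47 as a mean of per-cell values, -1.18 in female-labelled and -0.65 in male-labelled cells, -0.42 without the cells of highest doublet score and -0.68 without cells with B cell marker UMIs; the replication ratio, -0.17, was -0.32 in female-labelled cells, 0.063 in male-labelled cells and -0.30 without cells with B cell marker UMIs. In the pooled B-lineage clusters the mitosis ratio, -0.12, was -0.19 as a mean of per-cell values and -0.092 in female-labelled cells, and the replication ratio, -0.03, was -0.069 as a mean of per-cell values, -0.15 in female-labelled and 0.12 in male-labelled cells. The KO/het ratio of shares of mitosis-positive cells in cluster 3, 1.03 without thinning, was 0.721 with at least 5 genes, 0.547 thinned to 3000 UMIs, 0.617 thinned to 1000 UMIs and 0.451 at 0.1% of UMIs. The 18 mitosis genes called in ILC2s became 10 at a minimum of 50 UMIs and 6 in male-labelled cells, where fewer genes are measured, and the 20 in cluster 3 became 13 at 2-fold and 13 without the cells of highest doublet score. In male-labelled cells the direction of a 1.5-fold difference turned for the mitosis genes of cluster 2 (-0.23 against 0.59), NK (-1.40 against 0.87) and cluster 19 (0.37 against -1.08), and for Tpx2 (0.35) and Plk1 (0.35) in ILC2s; Birc5 in cluster 3 was at 0.0059 without the cells of highest doublet score. Smaller mitosis differences also turned in male-labelled cells with an interval that leaves out 0: gdTcells (2.78 against -0.24), cluster 4 (0.37 against -0.40), cluster 12 (-0.29 against 0.01) and cluster 20 (-0.88 against 0.51). In female-labelled cells cluster 7 (-1.13 against 0.45) and cluster 18 (0.24 against -0.18) did. Only 3 het and 2 KO male-labelled cells of cluster 20 were mitosis-high. Except where stated, the cause was not tested. Depth limits the lymphocyte classes.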

Other observations

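The cycle inhibitor Cdkn1c, which encodes p57 and is imprinted, differed between libraries in both directions across classes. It had 350 UMIs in het and 63 in KO cluster 10 (ratio 0.167, 0.126 to 0.219) and 599 and 210 in the dendritic cell-like cluster 14 (0.418, 0.355 to 0.489). It had 164 and 483 UMIs in the neutrophil lineage-like cluster 13 (2.55, 2.13 to 3.06) and 47 and 146 in the neuron-like cluster 17 (6.07, 4.34 to 8.62). Cluster 0, the class with the most Il33 UMIs of those listed above, had mitosis genes at 203 CPM in het and 136 CPM in KO (0.671, 0.639 to 0.704) and replication genes at 366 and 339 CPM (0.924, 0.894 to 0.955). Its log2 mitosis ratio was -0.17 in female-labelled and -0.96 in male-labelled cells. Of its mitosis-high cells, 17 of 28 in het and 15 of 23 in KO were among the 5% with the highest doublet score.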
